A study of Danio rerio with 370 samples.

Results

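The genes described here are 7 transcription factor genes of the glutamatergic neuron lineage: the NEUROD family, EOMES and TBR1. They were chosen by identifier and symbol, as every gene listed under NEUROD1, NEUROD2, NEUROD4, NEUROD6 and TBR1 together with 1 copy of EOMES, and they are 7 of 32266 genes in the count table. The identifiers are ENSDARG00000019566 for NEUROD1, ENSDARG00000016854 for NEUROD2, ENSDARG00000003469 for NEUROD4, ENSDARG00000006640 for EOMES and ENSDARG00000004712 for TBR1. NEUROD6 was listed under 2 identifiers, ENSDARG00000020794 and ENSDARG00000040008, which are named NEUROD6-20794 and NEUROD6-40008 after their last digits.

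Single cells were sorted from the forebrain of adult zebrafish of either sex that carried both the her4.1:mcherry and the elavl3:gfp reporter, so that every group shares the same genotype and no group was treated. Each fish was dissociated on its own, and the dissected tissue held the telencephalon together with the anterior diencephalon. Cells of the mature neuron (MN) gate were GFP-positive and mCherry-negative, those of the newborn neuron (NBN) gate were GFP-positive with low mCherry, and those of the radial glia (RG) gate had high mCherry and no GFP. The gates therefore depend on how long mCherry protein lasts after her4.1 is turned off, and the names of the gates are not proof of a cell's stage. SMART-seq2 libraries, which cover whole transcripts and carry no molecular identifiers, gave read counts for 370 cells, of which 264 passed the quality filters: 27 MN and 73 RG cells, and the rest NBN cells. The split over the gates, taken from the sample labels, differs by a few cells from the one stated in the study at the same total, and the reason was not found. The NBN and RG cells came from 6 fish, with 27, 28, 28, 28, 26 and 27 NBN cells in fish 1 to 6 and 5 to 23 RG cells per fish. The MN cells came from the sixth fish alone (batch bfx811), so no test between MN and NBN cells over fish was possible.

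NEUROD proteins are basic helix-loop-helix activators that act downstream of the proneural factors and accompany the exit from the cell cycle and the differentiation of neurons. EOMES (also called TBR2) and TBR1 are T-box factors. In the mouse cortex EOMES marks intermediate progenitors and TBR1 marks young glutamatergic neurons, and in the pallium of many vertebrates the PAX6, EOMES, NEUROD and TBR1 genes are used in sequence during the making of glutamatergic neurons. EBF3 is a COE-family factor of migrating and differentiating neurons, SLC17A6 (VGLUT2) loads glutamate into synaptic vesicles and tubb5 encodes a beta tubulin of young neurons.

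Sequencing depth set the scale of detection. The median number of reads per cell was 191372 in MN cells (99284 to 258967), 270898 in NBN cells (38724 to 569318) and 211548 in RG cells (76613 to 549274). Levels are given as CPM, the reads of a gene scaled to the same total in every sum, after the reads of all cells of a fish and class were added up, and they were compared for the same gene only, never between genes. By the edgeR test described below, 8 of 8 tested radial glia genes were lower in the NBN than in the RG gate. Of 8 tested neuron genes 4 were higher (6 with the fish as a block). Over all genes tested 6.66% were higher (9.97% with the block) and 8.47% differed in either direction. The lists hold her4.1 and elavl3, whose reporters set the gates, so part of this was fixed by the sort. The summed level of the neuron list was 9522 to 12512 CPM in NBN cells and 450 to 1472 CPM in RG cells.

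TBR1 was the most widely detected of the 7 genes in the NBN gate, and at least 1 of the 7 was read in 16 of 27 MN cells (59.3%), 81.7% of NBN cells and 15 of 73 RG cells. A read of any NEUROD gene was present in 13 of 27 MN cells (48.1%), 81 NBN cells (49.4%) and 9 of 73 RG cells. TBR1 was read in 96 NBN cells (58.5%, exact 95% binomial interval 50.6 to 66.2%), and NEUROD1 in 59 (36%, 28.6 to 43.8%). NEUROD6-40008 followed with 55 cells (33.5%), EOMES with 46 (28%) and NEUROD6-20794 with 45 (27.4%). NEUROD2 was read in 29 cells (17.7%) and NEUROD4 in 12 (7.32%). These intervals cover counting error only, since cells of 1 fish are not independent.

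Detection in NBN cells did not rest on stray reads. A positive NBN cell held a median of 265 reads of NEUROD1, 321.5 of EOMES and 397 of TBR1. The median level in positive cells was 804 CPM for NEUROD1, 395 for NEUROD2, 469 for NEUROD4, 511 for NEUROD6-20794, 497 for NEUROD6-40008, 1422 for EOMES and 1475 for TBR1. In RG cells this differed by gene. The 5 RG cells with TBR1 held a median of 1 read, whereas the 7 with NEUROD4 held a median of 187 and the 8 with EOMES a median of 87. NEUROD4 was carried by few cells, with 71.7% of its NBN reads in 5 cells, whereas the 5 highest cells held 18.4% of the TBR1 reads.

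**Figure D1:**
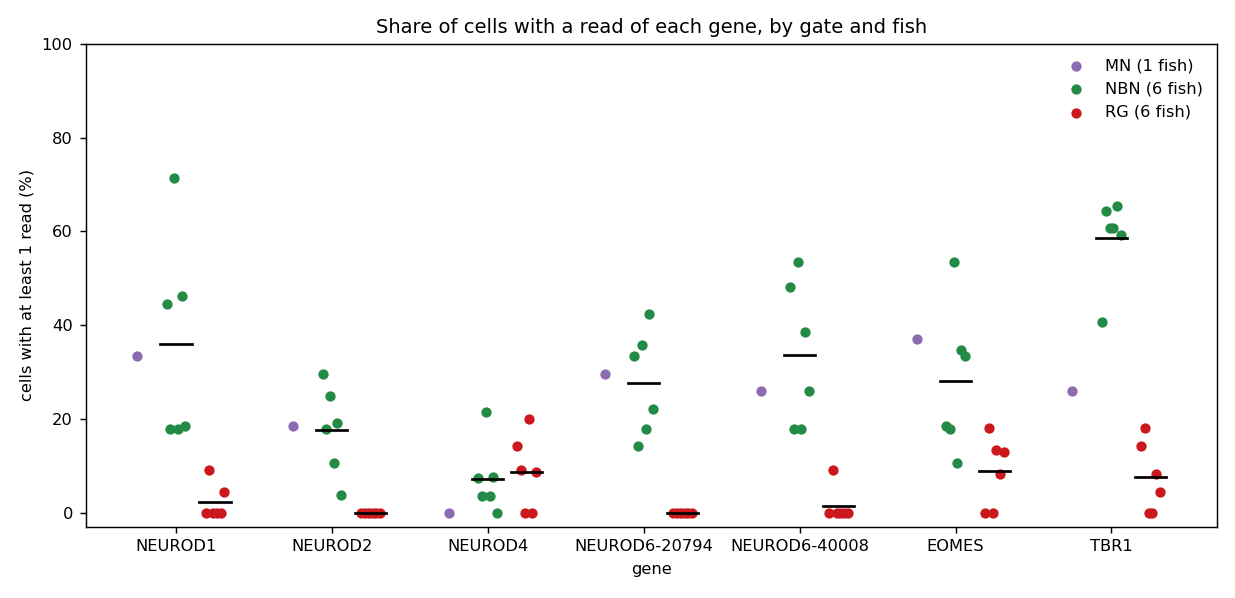
Share of cells with at least 1 read (y axis, percent of cells) of each of the 7 genes (x axis) in the MN, NBN and RG gates. Each point is 1 fish and the bars of the NBN and RG gates are means over 6 fish (MN cells are from 1 fish and have no bar); the TBR1 points of the NBN gate lie between 40.7% and 65.4%, above all RG points, whereas NEUROD4 points of the NBN and RG gates overlap.

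The comparison of the NBN with the RG gate asked which of the 7 genes came up between glia and young neurons. NEUROD1, NEUROD2, both NEUROD6 copies and TBR1 were read in a larger share of NBN than RG cells in each of the 6 fish, EOMES was higher in 4 fish, and NEUROD4 differed in no constant direction. In summed reads, the quasi-likelihood test of edgeR, with p-values adjusted by Benjamini-Hochberg, called 3 of the 7 genes, all higher in NBN (NEUROD2, NEUROD6-20794 and TBR1), where it called 8.47% of all 8393 genes tested (6.66% higher). With the fish as a block, which pairs both gates of the same animal, 6 of the 7 were called higher (all but NEUROD4), against 9.97% of all genes. The median log2 fold change of the 7 genes was 5.05, beside 0.69 over all genes tested (0.48 with RLE normalization). With the fish as a block the median over all genes tested was 2.06, so fold changes of that fit are to be read beside this higher value.

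NEUROD1, which drives the differentiation of many neuron types, had 106.3, 339 and 937 CPM (lowest, median and highest fish) in NBN cells, against 0, 0 and 76.8 CPM in RG cells. Every NBN value lay above every RG value. Its log2 fold change was 4.90 ± 1.67 (SE) with an adjusted p of 0.0887 (edgeR), and 10.71 with an adjusted p of 0.000972 with the fish as a block. Over 13 alternatives the adjusted p ranged from 0.000153 to 0.283 and passed the threshold of 0.05 in 4. Of the NEUROD1 reads in the RG gate 99.3% came from 1 cell of the sixth fish, and without this fish the adjusted p was 0.000153. By share of cells, NEUROD1 was read in 36.04 ± 21.9% of NBN cells and 2.24 ± 3.78% of RG cells (mean ± SD of 6 fish, exact two-sided permutation p = 0.03125, the smallest that 6 fish allow). A share that was higher in every fish was found for 15.1% of 10478 genes in this comparison.

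NEUROD2, a factor of differentiating and mature pallial neurons in mouse, had 9.29, 72.3 and 149.6 CPM in NBN cells (lowest, median and highest fish), against 0 reads in all RG cells. The fitted log2 fold change was 11.68 ± 1.91 (adjusted p = 0.00175, edgeR), and it passed the threshold in all 13 alternatives. Against a gate with no read this fitted value depends on the prior count and is not a bound on the fold. NEUROD2 was read in 17.7% of NBN cells and 0% of RG cells on average. The RG gate held 73 cells, so 0 cells allows a share of up to 4.11%.

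NEUROD6-20794 was likewise absent from the reads of the RG gate, and NEUROD6-40008 nearly so. NEUROD6 factors follow NEUROD1 and NEUROD2 in postmitotic pallial neurons of the mouse. NEUROD6-20794 had 105.9, 183 and 311 CPM in NBN cells, against 0 reads in all RG cells (fitted log2 fold change 13.14 ± 1.3, no bound either, adjusted p = 3.9e-05, edgeR, past the threshold in all 13 alternatives). NEUROD6-40008 had 43.8, 237 and 630.4 CPM in NBN cells, against 0, 0 and 60.7 CPM in RG cells. The 2 gates overlapped in 1 fish each, since the RG value of the second fish, which came from a single cell, was above the NBN value of the fourth. The log2 fold change of NEUROD6-40008 was 5.05 ± 1.73 with an adjusted p of 0.0928 (edgeR), and 11.36 with an adjusted p of 0.000763 with the fish as a block. Its adjusted p ranged from 0.000434 to 0.255 over 13 alternatives, with the lowest value when the second fish was left out. Shares of cells were higher in NBN than RG in 6 of 6 fish for both copies, at 27.6% against 0% for NEUROD6-20794 and 33.6% against 1.52% for NEUROD6-40008 (exact permutation p = 0.03125 each).

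NEUROD4, an early member of the family in neural precursors, did not separate the gates. Its level was 0, 25.6 and 149.6 CPM in NBN cells (mean 46.9 ± 54.2, SD), against 0, 0.839 and 172 CPM in RG cells (mean 42.1 ± 70.9), and the gates overlapped widely. The log2 fold change was 0.21 ± 1.71 (adjusted p = 0.974, edgeR) and passed the threshold in none of 13 alternatives. NEUROD4 was read in 7.28% of NBN cells and 8.68% of RG cells on average, with NBN higher in 2 fish and lower in 4 (exact permutation p = 0.812).

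EOMES had 217, 493.4 and 909 CPM in NBN cells, against 0, 41.5 and 201 CPM in RG cells. The lowest NBN fish was above the highest RG fish. The log2 fold change was 2.94 ± 1.17 with an adjusted p of 0.168 (edgeR). With the fish as a block it was 4.27, beside a median of 2.06 over all genes, with an adjusted p of 0.0495 (edgeR). The block was the only 1 of 13 alternatives past the threshold (range up to 0.490). EOMES was read in 28.1% of NBN cells and 8.82% of RG cells (exact permutation p = 0.125), and its share was higher in NBN in 4 fish. After every cell was thinned to 20000 reads the difference was 18.9 percentage points, higher in 6 of 6 fish (exact permutation p = 0.03125).

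TBR1 had 561, 994 and 1613 CPM in NBN cells, against 0, 0.519 and 40.96 CPM in RG cells, with no overlap. Its log2 fold change was 6.72 ± 1.42 (adjusted p = 0.00437, edgeR), and it passed the threshold in all 13 alternatives. Its share was 58.5 ± 9.0% in NBN cells and 7.52 ± 7.53% in RG cells (SD, 6 fish, exact permutation p = 0.03125). Over the 6 fish the TBR1 share of NBN cells ran from 40.7 to 65.4%, and that of NEUROD1 from 17.9 to 71.4%.

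The oligodendrocyte lineage list had a summed level of 801 to 1730 CPM in NBN cells and 0.543 to 393 CPM in RG cells. This list includes CNP, which the paper gives as a marker of a newborn neuron cluster. The sum is therefore not a measure of oligodendrocyte content alone. Of 4 tested list genes, 0 passed the threshold between the gates (edgeR), and 1 was higher with the fish as a block. Without cells that held OLIG2 or SOX10, NEUROD2, NEUROD6-20794 and TBR1 still passed the threshold (edgeR).

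The Notch target her4.1 was read in all 15 RG cells with reads of these genes, beside 68 of all 73 RG cells, so this is near the share of the whole gate. EOMES and NEUROD4 made up most of these 15 cells, with 8 and 7 cells. Of the 8 RG cells with EOMES, 5 held the cell cycle gene CCND1 and 1 held elavl3, beside 31 and 8 of all 73 RG cells. Over all 15 cells, 10 held CCND1, against 21 of the other 58 RG cells. These counts are a description, with no test.

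The other genes of the pallial glutamatergic cascade moved less evenly. Of 34 identifiers on this list, 20 could be tested between NBN and RG, where 4 were higher and 1 was lower (6 and 1 with the fish as a block), with a median log2 fold change of 1.14 beside 0.69 for all genes. Over all genes tested 6.66% were called higher and 8.47% in either direction. The genes that rose were BHLHE22 (log2 fold change 12.36) and BHLHE23 (10.47), both Olig-related basic helix-loop-helix factors, and both SLC17A6 identifiers. FEZF2, a forebrain zinc finger factor, fell by 4.98 on the log2 scale. Of 4 tested identifiers of the ventral GABAergic list DLX5 rose (8.30), and the list median was -1.13. Of 4 of the diencephalic and Ebf list EBF3 (7.35), lhx1a (10.52) and 1 UNCX identifier (12.62) rose (median 8.94, 4 higher with the fish as a block).

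The MN gate could be set beside NBN cells of the same fish only, 27 cells each. TBR1 was read in 7 MN cells (25.9%, exact interval 11.1 to 46.3%) and 16 NBN cells (59.3%, 38.8 to 77.6%), and its summed level was 113.7 CPM in MN and 1613 CPM in NBN. The NEUROD genes were at no lower a count in MN, with NEUROD1 in 9 MN and 5 NBN cells, NEUROD2 in 5 MN cells and 1 NBN cell, and NEUROD6-20794 in 8 MN and 6 NBN cells. NEUROD6-40008 was read in 7 cells of each gate and EOMES in 10 MN and 9 NBN cells. NEUROD4 was read in no cell of either gate, which allows a share of up to 11.1% in each. In summed reads the MN and NBN cells had 142.8 and 106.3 CPM of NEUROD1, 66.9 and 9.29 CPM of NEUROD2, 149.6 and 105.9 CPM of NEUROD6-20794, 130.4 and 159.5 CPM of NEUROD6-40008, and 430.1 and 483 CPM of EOMES. Of the 7 genes TBR1 had the largest ratio between these gates and was lower in MN. The gates also differed in EBF3, which was read in 1 MN cell and 18 NBN cells of this fish. TBR1 was read in 15 of these 18 EBF3-positive NBN cells. Of the 9 EBF3-negative NBN cells 1 held TBR1, at a summed level of 26.02 CPM, which was below the MN level. The part of EBF3 cells in the TBR1 difference was not tested. The median depth was 191372 reads in the MN cells and 116057 in these NBN cells. Since 1 fish gave all these cells, the values compare these libraries and carry no test over animals.

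Which of the 7 genes occurred in the same cell was counted next. In the NBN gate 88 cells held 2 or more of the 7 genes and 1 cell held all 7, and in the MN gate 12 of 27 cells held 2 or more. The commonest single state was TBR1 alone, in 37 cells, followed by none of the 7 in 30 cells, EOMES with TBR1 in 12 and NEUROD1 with both NEUROD6 copies in 9.

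NEUROD genes were often read together. Of 59 NBN cells with NEUROD1, 49 held at least 1 NEUROD6 copy and 22 held NEUROD2. NEUROD2 was read with NEUROD1 in 22 of its 29 cells. The NEUROD6 copies shared 30 cells, of 45 with NEUROD6-20794 and 55 with NEUROD6-40008, and NEUROD4 shared 10 of its 12 cells with NEUROD1 and 10 with TBR1.

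TBR1 was read in cells with and without the family. Of 96 TBR1 cells 47 held a NEUROD read (49%) and 49 held none, beside 49.4% of all NBN cells with a NEUROD read. Those 47 were 58% of the 81 NEUROD cells, beside 58.5% of all NBN cells with TBR1. Pooled over the gate, TBR1 and NEUROD were thus read together at about their shares over all NBN cells. EOMES lay mostly within TBR1 cells (36 of 46) and was read with a NEUROD gene in 30. In the MN gate 6 of 7 TBR1 cells held a NEUROD read, 8 of 10 EOMES cells held a NEUROD read and 4 of 10 held TBR1. Thus TBR1 without NEUROD was found in 1 of 27 MN cells and, in NBN cells of the same fish, in 13 of 27. All 13 of these NBN cells held an EBF3 read.

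**Figure D2:**
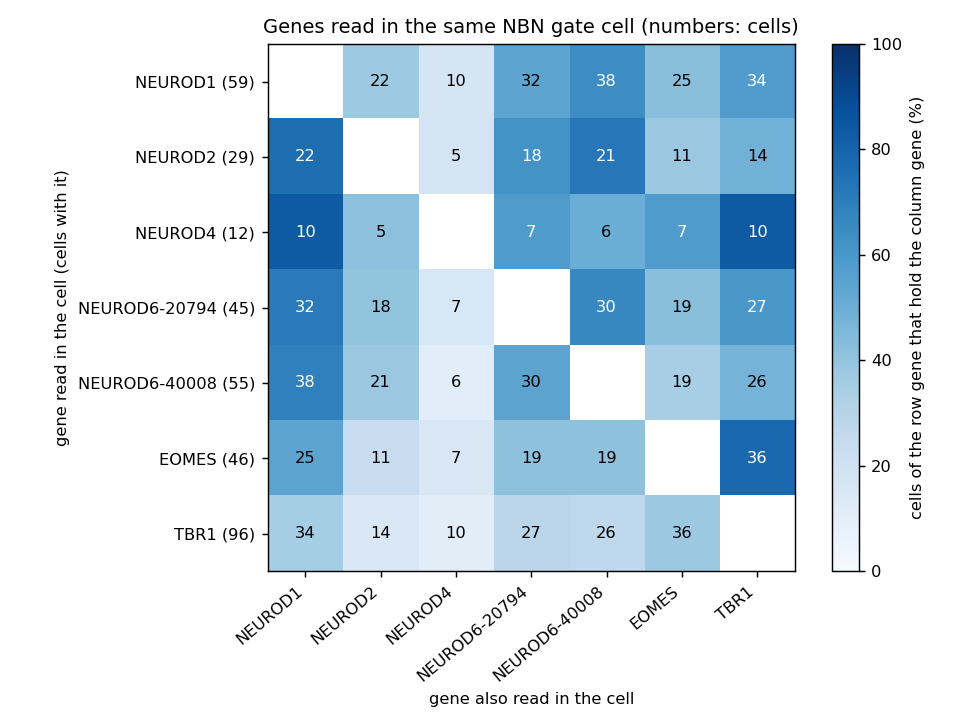
Co-detection in NBN cells, with the gene read in the cell in rows (its number of cells in parentheses) and the gene also read in columns. Colour is the percentage of the row gene's cells that hold the column gene and numbers are cells; EOMES and TBR1 share 36 cells, and NEUROD1 and NEUROD6-40008 share 38.

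The number of NBN cells with a NEUROD read, and with TBR1 but no NEUROD read, varied between fish. Any NEUROD was read in 18, 7, 23, 8, 17 and 8 NBN cells of fish 1 to 6, which held 26 to 28 NBN cells each. TBR1 without NEUROD was found in 2, 13, 3, 12, 6 and 13 cells of the same fish. Fish 1, 3 and 5 had more NEUROD cells and fewer TBR1 cells without NEUROD than fish 2, 4 and 6, and since a cell can be only of 1 kind the 2 counts are not independent. The sixth fish was the only one of its batch and lay within the range of the other 5 in both counts. By share of NBN cells it was the highest in TBR1 without NEUROD, at 48.1%, with fish 2 next at 46.4%. It was the lowest in TBR1 with NEUROD, at 11.1%, with fish 2 and 4 next at 17.9%.

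The relation to EBF3 was asked of the NBN cells, of which 80 held an EBF3 read and 84 did not. The paper names ebf3a, kcnj19a and tbr1b together as markers of 1 newborn neuron cluster, drawn from cells of this same series. It also reports that neurod genes were absent from that cluster. The direction of the TBR1 difference was thus known beforehand, and its test is no independent support. TBR1 was the 1 gene of the 7 with the same direction in all fish: it was read in 60, 73.8 and 88.9% of EBF3-positive cells (lowest, median and highest fish), against 11.1, 48.7 and 54.5% of EBF3-negative cells. The groups did not overlap, and the mean difference was 32.2 percentage points (74.4 ± 10.7% against 42.2 ± 16.6%, SD, exact two-sided permutation p = 0.03125, the smallest possible with 6 fish). Higher in every fish were 0.955% of 8273 genes and lower in every fish 2.61%. Without NBN cells that held OLIG2 or SOX10 the difference was 25.3 points, higher in 5 of 6 fish (p = 0.0625, exact permutation), and with EBF3-positive set at 100 CPM it was 39.8 points over 5 fish (p = 0.0625, exact permutation, the smallest with 5 fish). Without the sixth fish, the only one of its batch, it was 24.2 points.

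By summed reads TBR1 had 660, 1250.4 and 2495 CPM in EBF3-positive cells (mean 1455 ± 834, SD), against 26.02, 591 and 744 CPM in EBF3-negative cells (mean 537 ± 267). One fish of the positive class lay inside the range of the negative class. The log2 fold change was 1.39 ± 0.56 with an unadjusted p of 0.024 and an adjusted p of 0.9999 (edgeR), and the adjusted p was at least 0.104 in every alternative. Among cells that held TBR1, the median level was 1951 CPM in 60 EBF3-positive and 976 CPM in 36 EBF3-negative cells.

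edgeR called none of the 7 genes between the EBF3 classes, where it called 0.0271% of 7376 genes (EBF3 itself and the potassium channel gene kcnj19a), and 224 genes had an unadjusted p under 0.05. DESeq2 called 28 genes and again none of the 7. The median log2 fold change of the 7 was -0.92, beside -0.04 over all genes tested. Of the NEUROD genes and EOMES, none had a share of cells that moved in 1 direction in every fish when 1 EBF3 read made a cell positive. NEUROD1 was read in 29.1% of EBF3-positive and 49.5% of EBF3-negative cells, with EBF3-positive lower in 5 of 6 fish (exact permutation p = 0.0938). NEUROD6-20794 was read in 18.5% of EBF3-positive and 40.9% of EBF3-negative cells (lower in 5 of 6, p = 0.0938, exact permutation), and NEUROD6-40008 in 23.9% of EBF3-positive and 47.4% of EBF3-negative cells (lower in 4, p = 0.125, exact permutation). These differences did not pass the threshold. When cells with an EBF3 read but under 100 CPM were left out, which left 5 fish, NEUROD1 (17.5% of EBF3-positive and 51.2% of EBF3-negative cells) and NEUROD6-40008 (10.4% and 47.8%) were lower in 5 of 5 fish (exact permutation p = 0.0625 each, the smallest that 5 fish allow). NEUROD2 stood at 25.4% of EBF3-positive and 17.4% of EBF3-negative cells (p = 0.469, exact permutation), NEUROD4 at 4.68% and 9.25% (p = 0.25, exact permutation), and EOMES at 24.7% and 31.3% (p = 0.438, exact permutation).

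A state that differed widely in number of cells was TBR1 without any NEUROD read, a count chosen after the values were seen and given without a test. Fish 1 to 6 held 1, 11, 3, 11, 6 and 13 such cells among 5, 17, 9, 18, 13 and 18 EBF3-positive cells, against 1, 2, 0, 1, 0 and 0 among 22, 11, 19, 10, 13 and 9 EBF3-negative cells. Every fish was higher in its EBF3-positive class, and in all 45 of 80 EBF3-positive and 4 of 84 EBF3-negative cells were of this kind. Any NEUROD was read in 39.1% of EBF3-positive and 67.03% of EBF3-negative cells on average, lower in 5 of 6 fish. The exception was fish 1, with 4 of 5 EBF3-positive and 14 of 22 EBF3-negative cells, and 3 of those 4 cells held EBF3 at only 2.42, 4.86 and 7.36 CPM.

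Other measures moved with the EBF3 classes. Median depth was 210462 reads in EBF3-positive and 330525 in EBF3-negative cells, the oligodendrocyte lineage list summed to 35.2 to 1420 CPM in EBF3-positive and 805 to 2180 CPM in EBF3-negative cells, and the radial glia list to 223 to 2340 CPM and 791 to 3811 CPM. OLIG2 or SOX10 was read in 16 NBN cells, of which 4 held TBR1 and 5 a NEUROD gene. SOX10 was at 0 in all EBF3-positive cells, and markers of microglia and endothelium had medians of at most 0.3 CPM in both classes. With OLIG2 or SOX10 cells left out, TBR1 without NEUROD was found in 51.5% of EBF3-positive and 5.26% of EBF3-negative cells. The oligodendrocyte lineage list includes CNP, as given above for the gates, so its sum is not a measure of oligodendrocyte content alone. The part of depth and of radial glia transcripts in these shares was not tested.

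**Figure D3:**
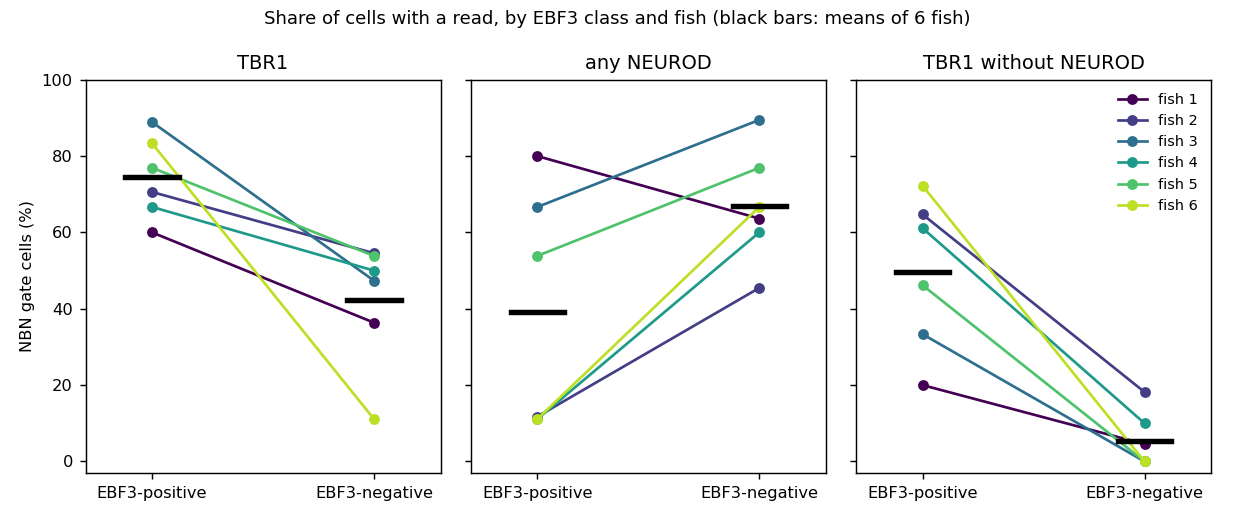
Share of NBN cells (y axis, percent) with a TBR1 read, any NEUROD read, or TBR1 without NEUROD, in EBF3-positive and EBF3-negative cells of each of 6 fish. Lines join the same fish and black bars are means; all 6 TBR1 lines run from higher in EBF3-positive to lower in EBF3-negative cells, and 5 of 6 NEUROD lines run the other way.

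The level of EBF3 graded the same states. TBR1 without NEUROD was found in 4 of 84 NBN cells with no EBF3 read, 1 of 12 with less than 100 CPM of EBF3, 5 of 11 with 100 to 1000 CPM and 39 of 57 with 1000 CPM or more. TBR1 with NEUROD was found in 32 of 84, 4 of 12, 4 of 11 and 7 of 57 cells in the same order, and NEUROD without TBR1 in 26, 4, 1 and 3. The levels of 100 and 1000 CPM were set after the values were seen, and the cells were pooled over fish.

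**Figure D4:**
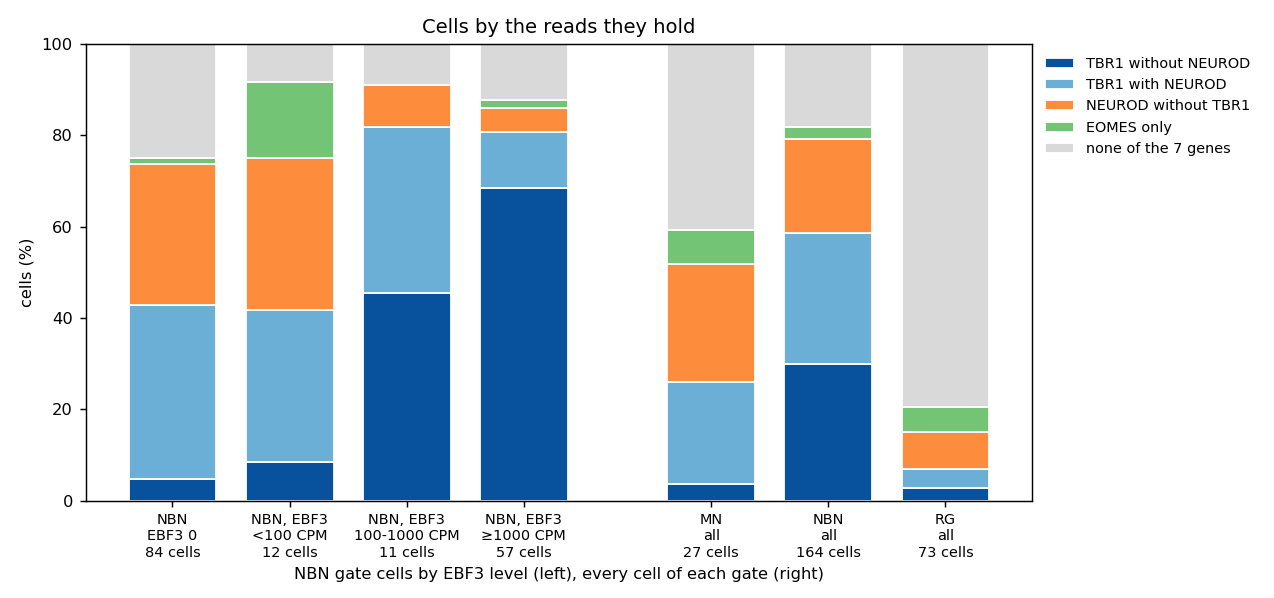
Cells by the reads they hold (y axis, percent of cells), for NBN cells by EBF3 level from none to 1000 CPM or more (left bars) and for all MN, NBN and RG cells (right bars). TBR1 without NEUROD fills 39 of 57 cells at the highest EBF3 level, and none of the 7 genes was read in 58 of 73 RG cells.

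Cells in these states differed in the other genes they held. The genes counted here were chosen after values were seen. Of them, kcnj19a, UNCX, VIM, ZFPM2, BHLHE22, ROBO1 and emx3 are among the genes most like the 7 in the same cells. Their differences between states defined by TBR1 and NEUROD reads are therefore partly built in. Of 49 NBN cells with TBR1 and no NEUROD 45 held EBF3, 40 kcnj19a, 33 the homeobox gene UNCX and 16 tubb5, and 1 held VIM, an intermediate filament gene. Of 47 cells with TBR1 and NEUROD, 15 held EBF3, 7 kcnj19a and 13 UNCX, whereas 43 held tubb5, 41 ZFPM2, 35 VIM and 30 BHLHE22. The homeobox gene emx3 was read in 21 of these 47 and 3 of the 49 without NEUROD. Cells with NEUROD but no TBR1 (34) held tubb5 in 23, VIM and ROBO1 in 25 each and BHLHE22 in 23. Median depth was 208278 reads in TBR1 cells without NEUROD and 357488 in those with it, and its part in these counts was not tested.

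The genes most like each of the 7 over the NBN cells were ranked by Pearson's r of log2(CPM + 1). The ranking covered 8273 genes read in at least 10 of these cells. Since several of these genes were also counted by cell state above, the ranking is not a second, separate result. The cells share their fish and differ in depth, so that r is a description. TBR1 was most like kcnj19a (0.44), EBF3 (0.41) and UNCX (0.36). NEUROD1 was most like MPPED1 (0.59), the GATA cofactor gene ZFPM2 (0.58) and VIM (0.57), and its r with EBF3 was -0.40 and with tubb5 0.52. The NEUROD6 copies were most like VIM, ZFPM2 and each other (NEUROD6-20794, 0.50, 0.50 and 0.49) and BHLHE22, VIM and the axon guidance receptor gene ROBO1 (NEUROD6-40008, 0.59, 0.54 and 0.53).

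The partners of NEUROD2, EOMES and NEUROD4 are given in the same way. NEUROD2 was most like BHLHE23 (0.50), VIM (0.43) and the choline kinase gene CHKB (0.40), and EOMES was most like emx3 (0.39), NFIL3 (0.39) and the kinase gene sgk1 (0.35). NEUROD4, read in 12 cells, was most like ZFAND2B (0.42), the chaperone gene HSPA8 (0.42) and KIDINS220 (0.40).

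**Figure D5:**
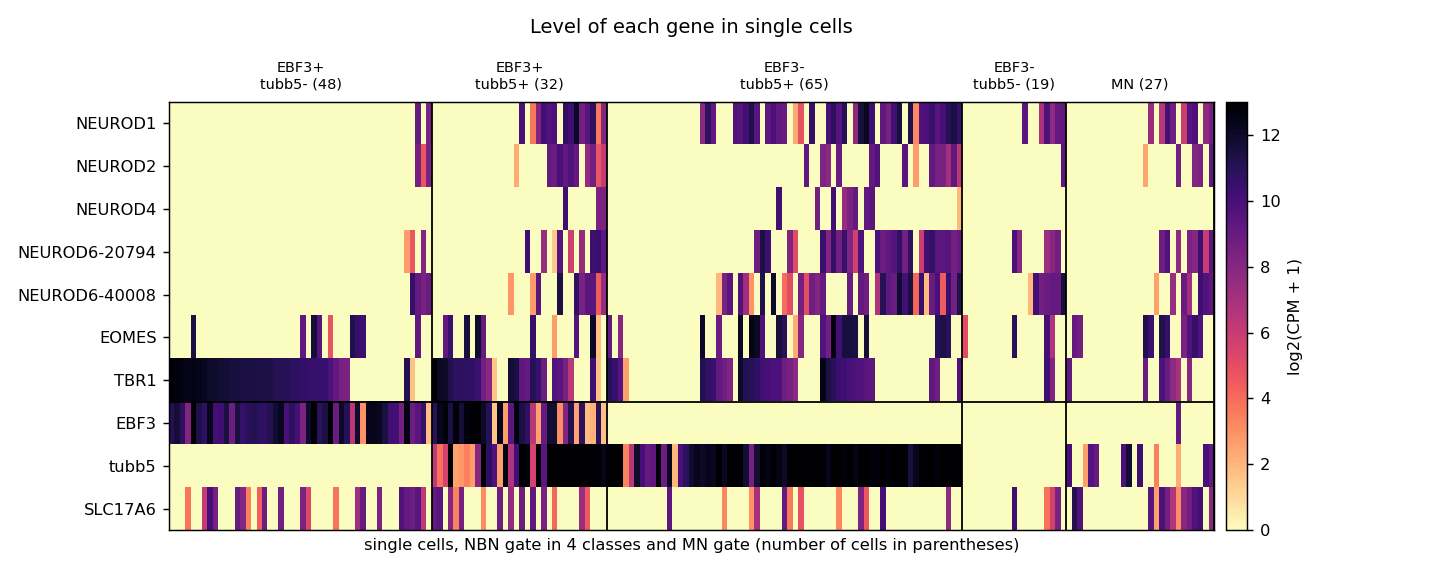
Level of each gene (rows, colour in log2(CPM + 1)) in single cells (columns) of the NBN gate, in 4 classes by EBF3 and tubb5 reads, and of the MN gate, with the number of cells in parentheses. The 48 EBF3-positive cells without tubb5 hold TBR1 in 35 and a NEUROD gene in 5, and the 65 EBF3-negative cells with tubb5 hold a NEUROD gene in 48.

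tubb5, which marks the younger of the newborn neurons in the study, was used to split the EBF3-negative cells. A tubb5 read is not proof of a stage, since it was present in 11 of 27 MN and 16 of 73 RG cells. The radial glia list had a median of 3153 CPM in tubb5-negative and 1117 CPM in tubb5-positive cells. The oligodendrocyte lineage list, which includes CNP, had 2028 and 1401 CPM in the same order. NEUROD1 was read in 37 and any NEUROD in 48 of 65 tubb5-positive cells, and any NEUROD in 10 of 19 tubb5-negative cells, and TBR1 was read in 34 of 65 and 2 of 19 cells. All 12 NBN cells with NEUROD4 held tubb5. In EBF3-positive cells NEUROD was read in 18 of 32 tubb5-positive and 5 of 48 tubb5-negative cells, and TBR1 in 25 of 32 and 35 of 48.

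Over fish this comparison was small, with 6 tubb5-positive and 4 tubb5-negative sums. edgeR called none of the 7 genes, where it called 0.932% of 6651 genes, all higher in tubb5-positive cells, and 799 genes had an unadjusted p under 0.05. DESeq2 called 347 genes, among them NEUROD4. The median log2 fold change of the 7 was 2.28, beside 0.49 over all genes tested (0.02 with RLE normalization). NEUROD1 had 437, 579 and 889 CPM in tubb5-positive cells (lowest, median and highest fish), against 0, 34.8 and 547 CPM in tubb5-negative cells (log2 fold change 2.82 ± 1.12, adjusted p = 0.214, edgeR, 0.0553 to 0.741 over the alternatives with more than 1 sum a class). Median depth was 339844 reads in tubb5-positive and 233258 in tubb5-negative cells, and its part was not tested. Fish 5 was the overlap, with 547 CPM of NEUROD1 and 515 CPM of TBR1 in its tubb5-negative cells.

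Sums of at least 5 cells left 1 tubb5-negative sum, and the median log2 fold change over all genes was then 6.42, so that fit is not used here. TBR1 had 0, 748 and 934 CPM in tubb5-positive cells, against 0, 26.9 and 515 CPM in tubb5-negative cells (2.89 ± 1.53 log2, adjusted p = 0.542, edgeR, 0.141 to 0.984 over the same alternatives). NEUROD4 had 0, 55.7 and 165.8 CPM in tubb5-positive cells and no read in tubb5-negative cells (adjusted p = 0.173, edgeR, 0.0137 to 0.754 over 12 alternatives, with only DESeq2 past the threshold). It was read in 9 of 65 tubb5-positive cells (13.8%), and 0 of 19 tubb5-negative cells allows a share of up to 15.8%, so a difference was not detectable at this number of cells. By share, NEUROD6-20794 was the 1 gene higher in every fish (49.7% of tubb5-positive and 25.8% of tubb5-negative cells, 4 of 4 fish), where 6.93% of 5140 genes were (exact permutation p = 0.125, the smallest that 4 fish allow).

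SLC17A6 was read in 51 NBN cells (31.1%), and the split by it left the 7 genes on both sides. Here and below, unless stated, a SLC17A6 read means a read of the identifier ENSDARG00000001127 alone. A read of any SLC17A6 or SLC17A7 identifier was present in 79 NBN cells (48.2%). Cells called SLC17A6-negative are thus not all without a vesicular glutamate transporter. No fold change of the 7 passed the threshold (edgeR, 0.0136% of 7376 genes called, SLC17A6 alone). At an unadjusted p under 0.05 stood 1.93% of genes, and DESeq2 called 26, none of the 7. The median log2 fold change of the 7 was -0.65, beside -0.15 over all genes tested. TBR1 was read in 50, 68.3 and 88.9% of SLC17A6-positive cells (lowest, median and highest fish), against 33.3, 54.3 and 68.2% of SLC17A6-negative cells. The classes overlapped, and SLC17A6-positive cells were higher in 5 of 6 fish (69.2% against 53.2%, exact permutation p = 0.156).

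NEUROD4 was read in 1 SLC17A6-positive and 11 SLC17A6-negative cells, higher in no fish and lower in 5 (1.67% against 9.92%, exact permutation p = 0.0625). NEUROD1 was read on average in 35.8% of SLC17A6-positive and 35.7% of SLC17A6-negative cells, NEUROD2 in 10.1% and 19.6%, NEUROD6-20794 in 30.7% and 25.9%, NEUROD6-40008 in 36.4% and 31.6%, and EOMES in 36.5% and 25.6%. None of the 7 shares had 1 direction in every fish, where 1.62% of genes were higher and 0.907% lower in every fish.

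SLC17A6 and EBF3 together also divided the NEUROD genes by number of cells, as a description. Of 16 EBF3-negative cells with SLC17A6, 15 held a NEUROD gene and 12 held NEUROD1, and 10 held TBR1. Of 35 cells with both EBF3 and SLC17A6, 11 held a NEUROD gene and 26 held TBR1. Of 68 cells with neither EBF3 nor this SLC17A6 identifier, 43 held a NEUROD gene.

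Cells with GAD1 or GAD2, which make GABA, and no SLC17A6 read were few. Of 17 such NBN cells TBR1 was read in 2, EOMES in 1 and any NEUROD in 3, and of 46 cells with SLC17A6 and no GAD read TBR1 was read in 33, EOMES in 16 and any NEUROD in 24. Over the 4 fish with both kinds of cell, TBR1 was read in 16.7% of GAD and 68.1% of SLC17A6 cells, and EOMES in 0% of GAD and 31.9% of SLC17A6 cells, each lower in GAD cells in 4 of 4 fish. The exact permutation p was 0.125, the smallest that 4 fish allow, and 5.94% of 4128 genes were lower in every fish. Median depth was 276898 reads in the GAD cells and 232070 in the SLC17A6 cells. None of the 7 genes was read in 12 of the 17 GAD cells and 3 of the 46 SLC17A6 cells.

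The cells that held none of the 7 genes had other markers. Of 30 such NBN cells 13 held a GAD gene (43.3%), 9 a DLX gene (30%) and 8 OLIG2 or SOX10 (26.7%). These shares were lower over all NBN cells, at 13.4, 8.54 and 9.76%. Of the same 30 cells 28 held elavl3 (93.3%), near its share of 95.7% over all NBN cells. EBF3 was read in 9 of them (30%), below its share of 48.8% over all NBN cells. Of 11 MN cells with none of the 7 genes 10 held a GAD gene, 11 a DLX gene and none SLC17A6. SLC17A6 was read in 13 of the 27 MN cells, among them 5 of 6 MN cells with TBR1 and NEUROD and 6 of 7 with NEUROD and no TBR1.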

How the data were processed

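SMART-seq2 reads of single forebrain cells were, per the labels and methods, aligned by the authors with GSNAP to GRCz10 and counted on Ensembl 87 genes with featureCounts (1.5.3). The authors deposited raw read counts per gene for 370 cells, before quality filters and without normalization. Counting by strand is not given in the sources used here, and genes in near-identical copies may lose reads. The filters of the study were applied: log10 reads above 4.5, log10 genes between 2.7 and 3.9, under 50% of reads in the top 50 genes, under 20% on 13 mitochondrial genes and over 20% mapped. Depth of the cells that passed was 38724 to 569318 reads. Spike-in transcripts are not used here, so their filter was left out.

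Fish 1 to 5 were taken from the sample titles and batch bfx811 as fish 6, since the study counts 6 fish. A further label, FISH id, has only 4 values. It follows the batch and the title field just before the well position, and not the fish number of the titles. It splits fish 2 and fish 4 over 2 values each, so n = 6 and the exact p-values rest on the fish as taken above. Raw counts were summed per fish and class (minimum 3 cells) and tested in edgeR 4.0.16 (TMM, filterByExpr, quasi-likelihood, Benjamini-Hochberg, threshold 0.05) in R 4.3.3. Sums of 1 number come from the same animal by title, so one alternative blocked on the fish. With class means removed, r between sums of the same fish was -0.0169 to 0.0638 (gates), 0.0088 to 0.0955 (EBF3), 0.0305 to 0.105 (SLC17A6) and -0.0319 to 0.0282 (tubb5). Shares of cells with at least 1 read were compared by exact two-sided sign-flip permutation over fish in scipy 1.17.1 (Python 3.11.15, pandas 2.3.3, numpy 2.4.6, matplotlib 3.10.9), unadjusted over the 7 genes of each comparison. Alternatives were RLE, DESeq2 1.42.0, no filter, other class thresholds, sums of 5 or more cells, all sorted cells, the 4 FISH id labels as replicates, thinning and leaving out each fish. The fit and the share test were tested on simulated data. Likeness used a pseudocount of 1. The genes named were the 7, EBF3, SLC17A6 and tubb5, list genes that passed the test, and the 3 genes most like each of the 7. Genes counted by cell state (such as CCND1, kcnj19a or emx3) were chosen after values were seen. Of these, kcnj19a, UNCX, VIM, ZFPM2, BHLHE22, ROBO1 and emx3 are also among the genes most like the 7. The genes and lists were chosen with earlier results of these data known.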

Additional observations from a re-analysis of the deposited data

Results flagged for a closer look

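In 53 groups of 4 to 6 fish, 12 had 1 fish far from the others (gap over range above Dixon's 95% value). That value is set for independent normal samples, whereas these sums hold zeros and the groups share cells. A group with a read in 1 fish alone always passes it. The number of flags is therefore not set against a chance rate, and no cause was tested. In the RG gate NEUROD1 stood at 76.8 CPM in fish 6, with the next fish at 0.759 CPM, and NEUROD6-40008 at 60.7 CPM in fish 2, with the others at 0; each came from 1 cell. In EBF3-positive cells fish 3 had 1084 CPM of NEUROD1 (next 312) and 183 CPM of NEUROD4 (next 36.2). In SLC17A6-positive cells fish 3 had 44.8 CPM of NEUROD4 (others 0) and fish 1 had 420.2 CPM of NEUROD6-20794 (next 133.1).

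TBR1 was lowest in fish 6, the only fish of its batch, at 26.02 CPM in EBF3-negative cells (next 535) and 0 CPM in tubb5-positive EBF3-negative cells (next 596). In tubb5-negative EBF3-negative cells fish 5, with 3 cells, stood apart in 4 genes: NEUROD1 at 547 CPM (next 39.4), NEUROD2 at 176 CPM (others 0), NEUROD6-40008 at 1328 CPM (next 106.9) and TBR1 at 515 CPM (next 53.8).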

How the results depend on the processing

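The number of fish limits the tests: 6 fish allow no exact p below 0.03125 and 4 none below 0.125, RG sums rest on 5 to 23 cells, and a read in 1 cell decided the RG level of NEUROD1 and NEUROD6-40008. Reads are not molecules, and a gene with no read may be expressed below detection. Of the log2 fold changes of the 7 genes under all alternatives 373 kept direction and side of the threshold, 12 passed it anew (2 of them, NEUROD1 and TBR1 by tubb5, in a fit with 1 tubb5-negative sum, which is not used) and 15 changed direction; of the share differences 297, 1 and 21, and 38 fell short of it, 37 of these with fewer than 6 fish, which cannot reach it. With the fish as a block no other call of the 7 genes changed than those given for the gates, and of the oligodendrocyte list 1 gene was higher in NBN. The cause of the changes below was not tested.

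The percentage of genes tested that passed the threshold was 13 with DESeq2 and 5.56 with no filter between NBN and RG (8.47 as reported; 1090 and 1232 genes against 711). Between EBF3 classes (0.0271) it was 0.380 with DESeq2, 0.454 with no filter, 0.233 with the FISH id labels, 0.369 at 100 CPM and 0.0131 to 0.189 without 1 fish. Between SLC17A6 classes (0.0136) it was 0.352 with DESeq2, 0.166 with no filter, 0.0426 with the FISH id labels and 0.0132 to 0.0813 without 1 fish. Between tubb5 classes (0.932) it was 0.150 with RLE, 5.22 with DESeq2, 0.905 with no filter (more genes tested), 0.127 with the FISH id labels, 0.351 at 100 CPM and 0.0740 to 1.37 without 1 fish. Of the 7 genes, the number with 1 direction in every fish was 0 without OLIG2 or SOX10 cells, 3 at 100 CPM and 1 to 2 without 1 fish for EBF3, 0 to 1 without 1 fish for SLC17A6, 3 without OLIG2 or SOX10 cells and 1 to 4 without 1 fish for tubb5, and 6 with both SLC17A6 copies, 6 with all SLC17A6 and SLC17A7 copies and 2 to 5 without 1 fish for GAD.

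Fold changes that reversed were all far from the threshold. For NEUROD4 between gates the log2 value was -0.012 with RLE, -0.011 with DESeq2, -0.69 with the FISH id labels, -0.10 without OLIG2 or SOX10 cells and -1.22 to 1.11 without 1 fish. For EBF3, NEUROD2 was -0.98 with the block and -0.46 at 100 CPM, and NEUROD4 -0.85 to 0.026 without 1 fish. For SLC17A6, EOMES was 0.14 and NEUROD1 0.029 with the FISH id labels, and EOMES -0.62 to 0.30 without 1 fish. Share differences (percentage points) reversed for NEUROD4 between gates (1.88 thinned, -5.97 to 1.61 without 1 fish), for NEUROD2 by EBF3 (-2.44 at 100 CPM), and by SLC17A6 for NEUROD1 (-1.87 thinned, -4.06 without OLIG2 or SOX10 cells, -3.20 at 100 CPM, -4.26 to 4.73 without 1 fish), NEUROD6-20794 (-0.252 thinned) and NEUROD6-40008 (-0.769 without OLIG2 or SOX10 cells, -1.96 at 100 CPM). By tubb5 they reversed for EOMES (5.67 thinned, 2.60 without OLIG2 or SOX10 cells, 0.763 at 100 CPM, -13.3 to 15.9 without 1 fish), NEUROD2 (-1.96 without OLIG2 or SOX10 cells) and NEUROD6-40008 (-10.6 without OLIG2 or SOX10 cells, -6.94 to 39.3 without 1 fish).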

Other observations

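Other copies of the T-box genes were read in few cells. The identifier ENSDARG00000076259, listed as tbr1a, was read in 0 of 27 MN, 20 NBN (12.2%) and 0 of 73 RG cells, and the other EOMES identifier, ENSDARG00000104243, in 0 MN, 2 NBN and 0 RG cells.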
